A study of Homo sapiens with 10 samples.

Results

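The genes described here are 38 keratins and squamous differentiation genes, listed by name. They were chosen to cover the keratins of basal, stressed, simple and suprabasal epithelium, the proteins of the cornified envelope, and the S100 proteins, kallikreins and secreted defence proteins that accompany them. Of the 38 genes, 33 had a named probe on the arrays, of 20741 genes with a named probe in all. KRT6A, KRT6B, KRT17, KRT81 and TP63 had none and are not analysed here. FaDu and HN5 are established human cell lines, both derived from squamous cell carcinomas of the head and neck. The cells received a precursor of miR-7, or the control precursor miR-NC, by transient transfection at 30 nM, and RNA was taken after 24 h. For FaDu, 3 arrays carry the miR-7 label and 3 the miR-NC label. For HN5, each precursor has 2 arrays. The lines were hybridized to different Illumina BeadChips. The arrays of a group are experimental replicates of 1 line, so p-values measure the spread between those replicates and not between tumors.

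Keratins are the intermediate filament proteins of epithelial cells and are built as pairs of a type I and a type II chain. KRT5 and KRT14 are the pair of the basal layer of stratified squamous epithelium, KRT8 and KRT18 the pair of simple epithelium, and KRT16 a keratin of wounded or hyperproliferative epidermis. As squamous cells move up and mature they switch to suprabasal keratins, KRT4 and KRT13 in the mouth and throat and KRT10 in skin. They then build the cornified envelope, a shell of proteins such as involucrin (IVL) and the small proline-rich proteins (SPRR) that the enzyme TGM1 cross-links under the cell membrane. EGFR signaling is known as a regulator of this program in keratinocytes.

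The precursor carried the mature strand of human miR-7, which is shown because its bases 2 to 8, in capitals, are the seed that pairs with target mRNAs (RefSeq, 24 bases, written 5′ to 3′).
hsa-miR-7-5p: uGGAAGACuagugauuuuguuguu

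Values are log2 intensities of 1 probe per gene, background-corrected and quantile-normalized within each line, so a difference of 1 is a 2-fold difference. A gene was tested if all arrays of 1 group or more detected a probe of it (detection p-value under 0.01), and the brightest of these probes stood for the gene. This left 22 of the 33 genes in FaDu and 25 in HN5, with 18 tested in both, 4 in FaDu only, 7 in HN5 only and 4 in neither. Changes were tested with limma, with p adjusted over all 9997 genes of FaDu and 9549 of HN5. Median scanner intensities per array ran from 114.4 to 148.9 in FaDu and from 114.5 to 158.5 in HN5. Within FaDu, arrays of the same label correlated at r = 0.9941 to 0.9957 over the kept probes. In HN5, replicate 2 of miR-7 was the array least like the rest, at r = 0.9044 to 0.9233 against 0.9699 to 0.9863 among the other 3 arrays.

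The FaDu arrays go by their labels throughout, and the direction that the labels give is the opposite of the one the study reports. EGFR, a direct target of miR-7, averaged 9.52 in FaDu arrays labelled miR-7 and 7.94 in those labelled miR-NC (log2 fold change 1.57, adjusted p = 2.64e-06), whereas in HN5 it averaged 12.1 with miR-7 and 13.7 with miR-NC (log2 fold change -1.67, adjusted p = 0.0492). Every signed FaDu value below would turn round if those labels were exchanged, and FaDu levels given for miR-NC would be levels with miR-7. Which is right cannot be told from the labels.

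With miR-NC, as labelled in FaDu, the lines differed in which of these genes could be detected at all. Squamous identity was first checked against 8 markers, of which KRT5, KRT14, SFN, DSP, PKP1 and DSG3 had probes, and all 6 were detected in both lines. In FaDu the simple keratins were all detected, with KRT19 at 12.7 ± 0.06, KRT8 at 11.7 ± 0.27, KRT7 at 7.02 ± 0.28 and KRT18 at 6.98 ± 0.21 (SD, n = 3). In HN5 the probes of KRT7, KRT8 and KRT19 did not pass detection on any array. KRT7 came near it on the 2 miR-7 arrays, at 6.03 and 6.07 (detection p-values 0.01845 and 0.02635). KRT18, the type I partner of KRT8, was at 12.2 ± 0.35 in HN5 with miR-NC (SD, n = 2). HN5 therefore had a detected probe for KRT18 without one for its usual partner. KRT18 was read in HN5 by a probe that was not among those named for FaDu, and the probe used in FaDu was at 8.14 in HN5.

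Basal keratins were detected in both lines. With miR-NC, as labelled in FaDu, KRT5 was at 11.6 ± 0.06 in FaDu (SD, n = 3) and 14.7 ± 0.04 in HN5 (SD, n = 2). KRT14 was at 8.69 ± 0.08 in FaDu and 15.1 ± 0.1 in HN5. KRT15, a further basal keratin, was at 9.54 ± 0.24 in FaDu and 10.5 ± 0.04 in HN5. These levels stand side by side only, since the lines were normalized apart on different array types and no test was made between them.

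Cornified-envelope genes were the group with the most undetected members in FaDu, where IVL, SPRR1B, SPRR2A, SPRR2D, SPRR3, FLG, SBSN and CRNN did not pass, 8 of the 11. In HN5, 4 of the 11 did not pass, namely IVL, SPRR2A, TGM1 and FLG. TGM1 was thus tested in FaDu and not in HN5, whereas 5 structural or late genes (SPRR1B, SPRR2D, SPRR3, SBSN and CRNN) were tested in HN5 and not in FaDu. With miR-NC, SPRR1B was at 12 ± 0.61, SPRR1A at 11.3 ± 0.15 and SPRR3 at 8.65 ± 0.34 in HN5 (SD, n = 2). FLG encodes filaggrin, the filament-aggregating protein of the granular layer of skin, and with IVL it did not pass detection on any array of either line. S100A7 was likewise undetected in both, and KRT23 and KLK7 were undetected in FaDu.

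**Figure D1:**
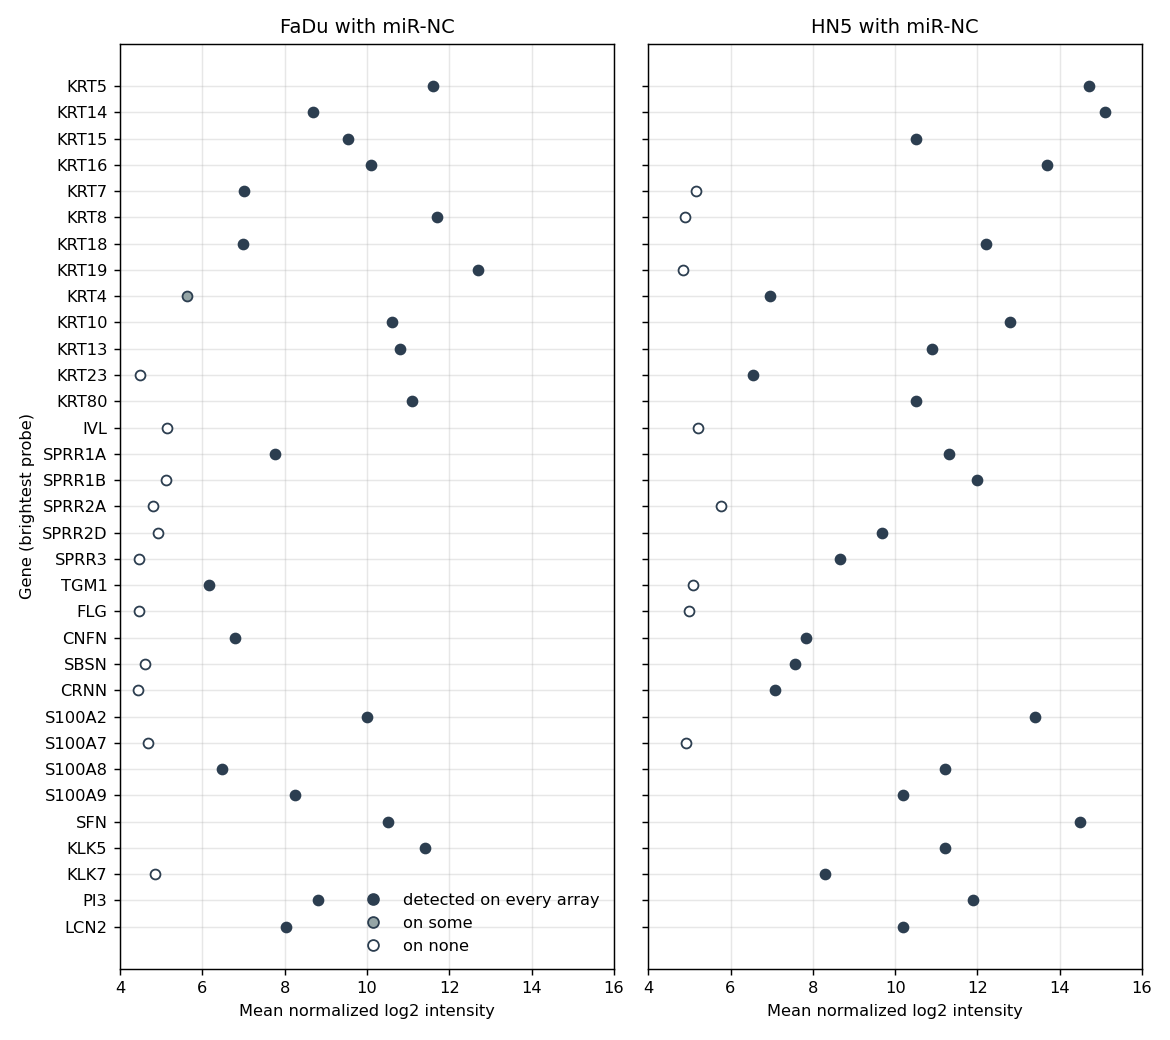
Mean normalized log2 intensity (horizontal) of the brightest probe of each of the 33 genes (vertical) in FaDu arrays labelled miR-NC (left) and HN5 arrays with miR-NC (right). Filled points were detected on every miR-NC array, grey on some and open on none. KRT7, KRT8 and KRT19 are open in HN5 and filled in FaDu, and SPRR1B, SPRR3, SBSN and CRNN are open in FaDu and filled in HN5.

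In FaDu arrays labelled miR-7, keratins of every class were higher than in those labelled miR-NC. All 12 tested keratins rose, by a log2 fold change of 0.29 to 0.96 (median 0.54). Beyond the keratins, 4 of 10 tested genes rose (TGM1, S100A2, S100A9 and SFN), and 0 of the 22 fell at an adjusted p under 0.05. The 16 of 22 that rose can be set beside the 20.0% of all tested genes that were higher and the 21.8% that were lower in this comparison. At the thresholds of the study, an unadjusted p under 0.05 and at least 1.5-fold, 7 of the 22 were higher and 0 lower, beside 7.28% and 5.31% of all genes. That count of 7 was 4 with no background correction and 2 with the authors' log2 values. The median log2 fold change of the 22 was 0.47, and that of all tested genes was -0.03. For 17 of the 22, every array labelled miR-7 was above every array labelled miR-NC, which held for 25.0% of all genes, and for 0 of the 22 every array labelled miR-7 was below, which held for 28.5%. At an unadjusted p under 0.05, 18 of the 22 were higher and 0 lower, beside 23.6% and 26.5% of all genes.

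KRT4 is the 1 gene of the 22 that passed detection on all arrays labelled miR-7 but only on 2 of 3 labelled miR-NC. Requiring detection on every array left 21 genes, of which 15 rose and 0 fell. Near-identical sequences limit which gene some probes read: KRT14 and KRT16 have close copies and pseudogenes, as do KRT8, KRT18 and the SPRR genes. In cultured lines, fewer cells of a type and less RNA per cell cannot be told apart.

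All 3 basal keratins rose. KRT14 was at 9.31, 9.39 and 9.4 in FaDu arrays labelled miR-7, against 8.76, 8.6 and 8.7 in those labelled miR-NC, a log2 fold change of 0.68 (SE 0.0713, adjusted p = 0.000157). Its type II partner KRT5 was at 12.19, 12 and 12.07 in arrays labelled miR-7, against 11.57, 11.64 and 11.7 in those labelled miR-NC (0.45, SE 0.0765, adjusted p = 0.0019). Both partners separated the groups without overlap. KRT15 was at 9.96, 10.12 and 9.98 in arrays labelled miR-7, against 9.82, 9.38 and 9.41 in those labelled miR-NC (0.48, SE 0.12, adjusted p = 0.0131). For KRT15, miR-NC replicate 1 lay close below the miR-7 arrays and the other 2 lay further down.

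Stress keratins are represented by KRT16 alone. KRT16 was at 10.44, 10.38 and 10.41 in FaDu arrays labelled miR-7, against 10.11, 10.06 and 10.1 in those labelled miR-NC (0.32, SE 0.0636, adjusted p = 0.00453). The change was 1.25-fold, with arrays of a group within 0.06 of each other. A second KRT16 probe was detected on only 1 of 3 FaDu arrays in each group and was not tested.

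All 4 simple keratins rose. KRT7, the type II keratin of glandular and ductal epithelium, was at 7.86, 7.98 and 8.11 in arrays labelled miR-7, against 7.31, 6.98 and 6.76 in those labelled miR-NC (0.96, SE 0.135, adjusted p = 0.000741). Its log2 fold change was 0.61 with no background correction and 0.46 with the authors' log2 values. KRT8 was at 12.36, 12.24 and 12.23 in arrays labelled miR-7, against 11.82, 11.91 and 11.4 in those labelled miR-NC (0.57, SE 0.127, adjusted p = 0.00811). Its partner KRT18 was at 7.65, 7.38 and 7.45 in arrays labelled miR-7, against 6.76, 7.19 and 6.98 in those labelled miR-NC (0.52, SE 0.119, adjusted p = 0.00887). The KRT8 and KRT18 groups did not overlap, although a second and dimmer KRT18 probe gave 0.11 (adjusted p over all probes = 0.476). KRT19, a short type I keratin of simple and transitional epithelium, was at 13.07, 13.03 and 12.97 in arrays labelled miR-7, against 12.75, 12.71 and 12.63 in those labelled miR-NC (0.33, SE 0.0689, adjusted p = 0.00562).

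The suprabasal keratins rose as well. KRT4 was at 6.71, 6.61 and 6.43 in arrays labelled miR-7, against 5.92, 5.38 and 5.6 in those labelled miR-NC (0.95, SE 0.136, adjusted p = 0.000814). KRT13, its type I partner in mucosa, was at 11.6, 11.45 and 11.35 in arrays labelled miR-7, against 10.95, 10.86 and 10.6 in those labelled miR-NC (0.66, SE 0.108, adjusted p = 0.0016). The KRT4 value was 0.39 with no background correction and 0.24 with the authors' log2 values, while that of KRT13 was 0.64 under both. KRT10, the type I keratin of the upper layers of skin, was at 10.93, 10.85 and 10.86 in arrays labelled miR-7, against 10.61, 10.63 and 10.54 in those labelled miR-NC (0.29, SE 0.0659, adjusted p = 0.00889).

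KRT80, a type II keratin found in many epithelia, had 2 tested probes in FaDu. The brighter was at 11.79, 11.74 and 11.68 in arrays labelled miR-7, against 11.17, 11.08 and 11.17 in those labelled miR-NC (0.59, SE 0.068, adjusted p = 0.000243). The dimmer averaged 8.23 in arrays labelled miR-7 and 6.82 in those labelled miR-NC, with a larger log2 fold change of 1.41 (adjusted p over all probes = 5.7e-05). Both probes put KRT80 higher, and they differ in how far.

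**Figure D2:**
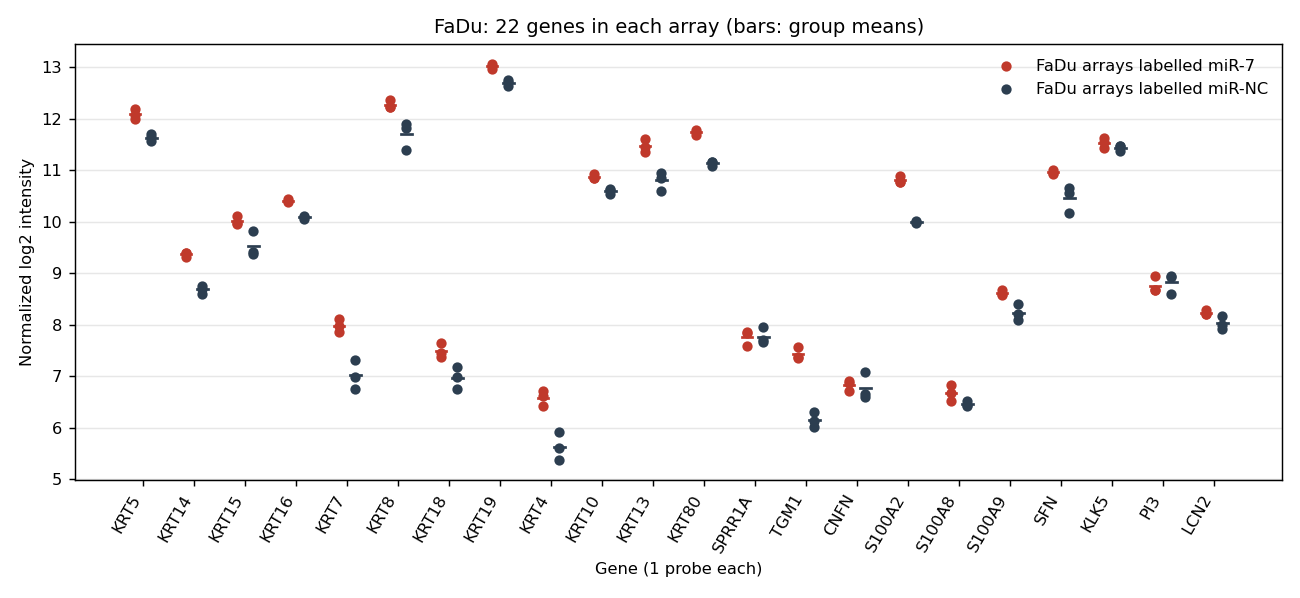
Normalized log2 intensity (vertical) of the 22 tested genes (horizontal) on each FaDu array, labelled miR-7 (red, left of each pair) and miR-NC (dark, right), with a bar at each group mean. For all 12 keratins every red point lies above every dark point, and the groups of SPRR1A, CNFN, S100A8, KLK5 and PI3 overlap.

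Among cornified-envelope genes in FaDu, the cross-linking enzyme changed and the 2 structural proteins that could be tested did not pass. TGM1 was at 7.38, 7.56 and 7.35 in arrays labelled miR-7, against 6.01, 6.3 and 6.13 in those labelled miR-NC, a 2.43-fold rise (1.28, SE 0.095, adjusted p = 2.59e-05). The log2 fold change of TGM1 was 0.67 with no background correction and 0.46 with the authors' log2 values. SPRR1A, a small proline-rich substrate of transglutaminase, was at 7.59, 7.84 and 7.87 in arrays labelled miR-7, against 7.95, 7.7 and 7.66 in those labelled miR-NC (0, 95% interval -0.25 to 0.24). CNFN, which encodes cornifelin, had a log2 fold change of 0.05 (95% interval -0.25 to 0.35), and both genes' groups overlapped. SPRR1B was detected on 2 of 3 FaDu arrays labelled miR-7 and on 0 of 3 labelled miR-NC, and so was not tested. The other 7 untested envelope genes were not detected on any FaDu array.

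Of the S100 proteins, small calcium-binding proteins, S100A2 and S100A9 rose in FaDu. S100A2, a basal-layer member, was at 10.77, 10.78 and 10.9 in arrays labelled miR-7, against 9.98, 9.99 and 10.02 in those labelled miR-NC (0.82, SE 0.0677, adjusted p = 4.44e-05). S100A9 was at 8.59, 8.68 and 8.57 in arrays labelled miR-7, against 8.09, 8.41 and 8.21 in those labelled miR-NC (0.38, SE 0.0927, adjusted p = 0.0121). S100A8, which forms the heterodimer calprotectin with S100A9, was at 6.83, 6.53 and 6.67 in arrays labelled miR-7, against 6.43, 6.45 and 6.53 in those labelled miR-NC (0.2, SE 0.0886, adjusted p = 0.0981). The lowest miR-7 array and the highest miR-NC array met at 6.53 to the rounding shown. Without miR-7 replicate 2, S100A8 passed (0.28, adjusted p = 0.0467).

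SFN was the 1 of 4 tested genes among the regulators, kallikreins and defence proteins that rose in FaDu. SFN encodes 14-3-3σ, an epithelial adaptor protein that binds keratins and holds cells in G2, and was at 10.94, 10.93 and 11.01 in arrays labelled miR-7, against 10.65, 10.56 and 10.17 in those labelled miR-NC (0.5, SE 0.12, adjusted p = 0.0112). LCN2, the siderophore-binding lipocalin, was at 8.29, 8.21 and 8.21 in arrays labelled miR-7, against 7.91, 8.18 and 7.99 in those labelled miR-NC, and did not pass (0.21, adjusted p = 0.0731) although its groups did not overlap. Without miR-NC replicate 2, LCN2 passed (0.29, adjusted p = 0.023). PI3, the elastase inhibitor elafin, had -0.06 (95% interval -0.33 to 0.21). KLK5, a serine protease of skin shedding, had 0.1 on its brightest probe (adjusted p = 0.34). Its other probes gave 0.19 (adjusted p over all probes = 0.103) and 0.57 (0.000764), so the call for KLK5 depended on the probe.

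By place in the genome, the FaDu rises fell on several chromosomes, beside 20.0% of all tested genes that were higher. The share of all genes on each chromosome was not computed. The members on chromosomes 12 and 17 are all keratins, so their counts repeat the keratin result. KRT4, KRT5, KRT7, KRT8, KRT18 and KRT80 lie on chromosome 12 and rose, 6 of 6 tested. KRT10, KRT13, KRT14, KRT15, KRT16 and KRT19 lie on chromosome 17 and rose, 6 of 6 tested. On chromosome 1, which holds the epidermal differentiation complex with the SPRR and S100 genes, 3 of 5 tested members rose, 1 of which (SFN) lies outside that complex. On chromosome 19, CNFN and KLK5 were tested and 0 of 2 rose. TGM1 on chromosome 14 rose, and PI3 on chromosome 20 and LCN2 on chromosome 9 did not pass.

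Promoters were compared because the keratins, S100A2 and SFN moved together in FaDu while SPRR1A did not. RefSeq windows (GRCh38.p14, 250 bases before to 50 after the start) matched 21 of the 33 genes. They were searched on both strands for TGANTCA (the motif of AP-1, a factor known to drive envelope genes, with any central base), TATAAA (the core promoter box near the start) and GCCNNNGGC (AP-2). No match of one overlapped a match of another in the windows shown. TGANTCA was in 11 of the 21 windows and in 7.76% of all 27305 windows. TATAAA was in 9 of the 21 and in 12% of all, and GCCNNNGGC in 3 of the 21 and in 23% of all. Of the 16 genes that rose in FaDu only 7 had a window, so most of the 12 keratins that rose were not searched. Among the 7, 2 held TGANTCA, 2 held TATAAA and 1 held GCCNNNGGC. No keratin window held TGANTCA. The window of KRT5, which rose, held none of the motifs and is not printed. A match is a run of letters and not a measured binding site. The windows of 3 genes that rose and hold a motif, and of 2 SPRR genes that hold both TGANTCA and TATAAA, are printed with all matches in capitals.
KRT4 (chr12:52814067-52814366, minus strand): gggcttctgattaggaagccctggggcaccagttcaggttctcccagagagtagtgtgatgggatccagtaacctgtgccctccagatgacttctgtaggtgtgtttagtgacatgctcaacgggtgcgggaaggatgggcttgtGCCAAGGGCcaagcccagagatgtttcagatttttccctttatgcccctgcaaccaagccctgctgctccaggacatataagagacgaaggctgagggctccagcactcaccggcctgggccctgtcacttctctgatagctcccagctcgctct
S100A2 (chr1:153565795-153566094, minus strand): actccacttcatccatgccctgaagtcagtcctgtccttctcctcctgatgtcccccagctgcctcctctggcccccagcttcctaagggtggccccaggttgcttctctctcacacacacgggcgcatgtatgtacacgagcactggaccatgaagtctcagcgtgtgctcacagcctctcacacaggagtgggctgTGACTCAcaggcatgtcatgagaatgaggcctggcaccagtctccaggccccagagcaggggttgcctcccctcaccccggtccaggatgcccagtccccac
SFN (chr1:26862899-26863198, plus strand): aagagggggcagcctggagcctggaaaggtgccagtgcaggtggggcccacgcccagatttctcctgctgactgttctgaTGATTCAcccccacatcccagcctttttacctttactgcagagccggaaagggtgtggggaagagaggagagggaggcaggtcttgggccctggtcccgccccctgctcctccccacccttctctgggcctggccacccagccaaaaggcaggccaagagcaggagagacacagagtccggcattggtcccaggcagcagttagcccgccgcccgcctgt
SPRR1A (chr1:152983831-152984130, plus strand): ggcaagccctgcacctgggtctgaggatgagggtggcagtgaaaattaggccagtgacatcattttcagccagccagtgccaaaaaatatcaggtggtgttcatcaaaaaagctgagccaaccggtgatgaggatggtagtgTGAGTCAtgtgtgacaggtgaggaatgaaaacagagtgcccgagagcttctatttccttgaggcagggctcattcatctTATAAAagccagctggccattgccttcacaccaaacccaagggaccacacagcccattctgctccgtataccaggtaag
SPRR3 (chr1:153001499-153001798, plus strand): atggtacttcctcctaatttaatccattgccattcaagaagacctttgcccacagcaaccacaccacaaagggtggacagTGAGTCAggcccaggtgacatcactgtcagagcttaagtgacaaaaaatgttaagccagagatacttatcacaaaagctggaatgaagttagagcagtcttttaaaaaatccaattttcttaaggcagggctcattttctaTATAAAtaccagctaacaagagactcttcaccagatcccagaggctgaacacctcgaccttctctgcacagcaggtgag
S100A2 and SFN each held 1 TGANTCA match and rose in FaDu, and SPRR1A held 1 as well and had a log2 fold change of 0. SPRR3 was not detected in FaDu.

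In HN5, 0 of the 25 tested genes passed an adjusted p of 0.05 with limma, 0 passed the thresholds of the study and 0 had an unadjusted p under 0.05 (beside 7.58% higher and 5.62% lower of all genes). Few genes passed in this comparison at all, 0.178% higher and 0.126% lower of those tested at the adjusted p, and 6.01% higher and 4.41% lower at the thresholds of the study. The log2 fold changes ran from -1.16 for KRT16 to 0.91 for CNFN, with a median of 0.02 against 0.04 over all genes. The miR-7 arrays were both above the miR-NC arrays for 2 of the 25 genes (KRT15 and S100A8) and both below for 4 (KRT18, KRT23, SFN and, by a margin lost in rounding, KRT14), beside 27.7% and 20.5% of all genes. With 2 arrays per group the intervals were wide. In HN5, 10 genes that rose in FaDu were read by the same probe. The FaDu value lay outside the HN5 interval for 6 (KRT5, KRT14, KRT4, KRT13, S100A2 and SFN). It lay inside for 4 (KRT15, KRT10, KRT80 and S100A9). These 10 were picked by their FaDu rise, and no share over all genes was computed. The HN5 interval also leaves out the FaDu spread, so the count is no test between the lines. The direct test, given below, called KRT14, KRT4 and SFN, and not KRT5, KRT13 or S100A2.

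The basal pair was nearly level in HN5. KRT14 was at 15.03 and 15.02 with miR-7, against 15.03 and 15.17 with miR-NC (-0.08, 95% interval -0.53 to 0.37). KRT5 was at 14.43 and 14.7 with miR-7, against 14.7 and 14.64 with miR-NC (-0.1, 95% interval -0.59 to 0.39). KRT15 had the largest value of the 3 basal keratins, at 10.66 and 10.8 with miR-7, against 10.46 and 10.52 with miR-NC (0.24, 95% interval -0.21 to 0.7).

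KRT16 had the lowest log2 fold change and rested on 1 array. It was at 13.5 and 11.51 with miR-7, against 13.86 and 13.46 with miR-NC (-1.16, SE 0.635, adjusted p = 0.472). The lower miR-7 value is that of replicate 2, the array that stood apart. A second KRT16 probe, the one used in FaDu, averaged 12.6 in both groups (0.04, adjusted p over all probes = 0.952). The probes of KRT16 therefore differ in HN5 on the same arrays.

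KRT18 was at 11.66 and 11.81 with miR-7, against 12.44 and 11.94 with miR-NC (-0.46, adjusted p = 0.455), and its other 2 probes gave 0.26 and -0.01. Of the suprabasal keratins, KRT13 had -0.18, KRT10 0.16 and KRT4 0.06, with intervals that all held 0. KRT13 was at 10.52 and 10.93 with miR-7, against 10.92 and 10.88 with miR-NC, so the groups overlapped. KRT23 was at 6.32 and 5.67 with miR-7, against 6.46 and 6.62 with miR-NC (-0.54, 95% interval -1.21 to 0.13, adjusted p = 0.444). It was detected on 0 of 2 miR-7 arrays and 2 of 2 miR-NC arrays, so it was tested only through its miR-NC arrays. Set against the lowest detected level, its miR-NC mean gives only a bound of 1.08-fold. KRT80 was at 10.64 and 11.01 with miR-7, against 10.67 and 10.23 with miR-NC (0.37, adjusted p = 0.527).

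The envelope and S100 genes of HN5 varied more between the 2 miR-NC arrays than between the groups. CNFN was at 8.58 and 8.9 with miR-7, against 6.85 and 8.8 with miR-NC (0.91, SE 0.618, adjusted p = 0.532), so 3 of the 4 arrays lay together and miR-NC replicate 1 lay below them. S100A8 was at 11.99 and 11.92 with miR-7, against 10.49 and 11.9 with miR-NC (0.76, SE 0.46, adjusted p = 0.499). Here too a single miR-NC array was low. PI3 was at 11.96 and 11.95 with miR-7, against 11.39 and 12.48 with miR-NC, and SPRR1B at 12.06 and 12.12 with miR-7, against 11.53 and 12.39 with miR-NC, with the miR-NC arrays on either side of the miR-7 arrays for both genes. For 7 of the 11 tested envelope genes, S100 proteins and PI3, a set grouped after the values were seen, miR-NC replicate 1 was the lowest of the 4 arrays, and it was the lowest for 26.1% of all genes. The median range between the arrays of a group in that set was 0.22 with miR-7 and 0.75 with miR-NC, while over all genes it was 0.27 with miR-7 and 0.19 with miR-NC. Without miR-NC replicate 1, the log2 fold changes of CNFN, S100A2, SPRR1B and PI3 turned to -0.06, -0.32, -0.31 and -0.54.

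Among the remaining HN5 genes, CRNN, which encodes cornulin of the esophageal and oral epithelium, was at 6.94 and 6.38 with miR-7, against 7.49 and 6.7 with miR-NC (-0.43, adjusted p = 0.591), and was detected on 1 of 2 miR-7 arrays. SFN was at 14.14 and 14.31 with miR-7, against 14.58 and 14.46 with miR-NC (-0.29, adjusted p = 0.521). The SFN groups did not overlap, with miR-7 below as for 20.5% of all genes, in the direction opposite to FaDu as labelled. LCN2, KLK5 and KLK7 had 0.21, 0.17 and 0, with adjusted p of 0.685 to 0.998.

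Leaving out HN5 miR-7 replicate 1 kept only the array that stood apart in the miR-7 group. The log2 fold changes were then 1.07 for CNFN, -2.13 for KRT16 and -0.86 for KRT23. KRT23 was not detected on that array. The second KRT16 probe was at 12.63 on it, against 12.77 and 12.37 with miR-NC. That fit takes the lone array to vary like the others, so these values rest on 1 array. Leaving out any other HN5 array gave 0 calls at the adjusted p.

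**Figure D3:**
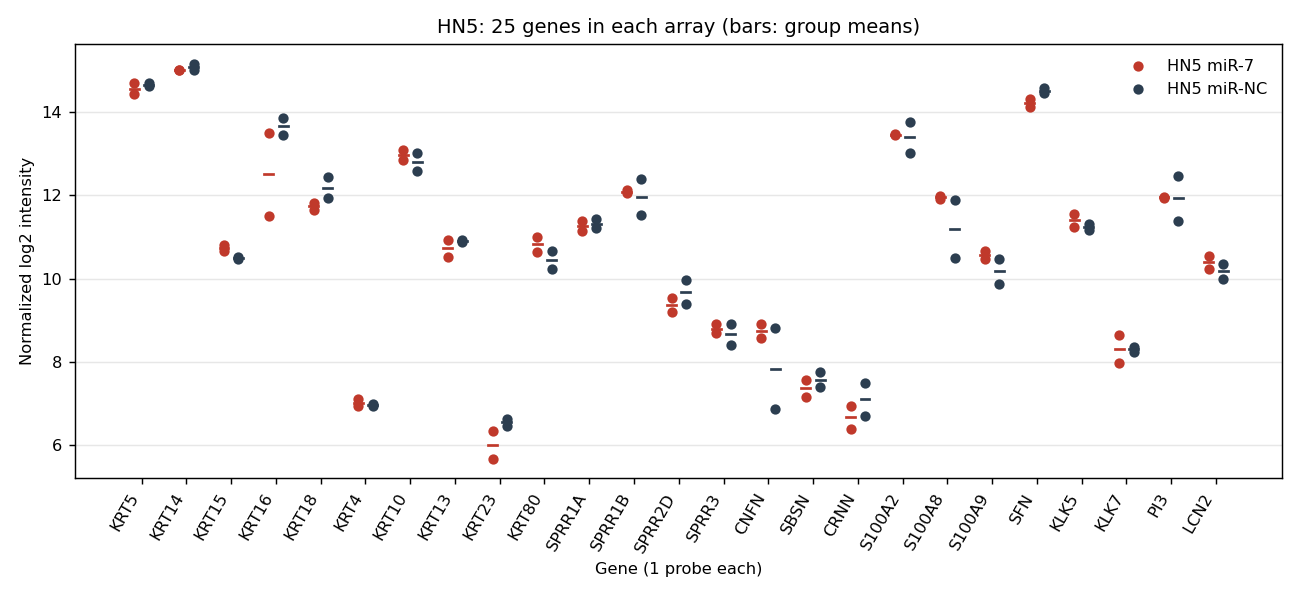
Normalized log2 intensity (vertical) of the 25 tested genes (horizontal) on each HN5 array, miR-7 (red, left of each pair) and miR-NC (dark, right), with a bar at each group mean. KRT16 has 1 low miR-7 array at 11.51, and CNFN and S100A8 have 1 low miR-NC array each at 6.85 and 10.49.

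Whether a gene responded differently in the lines was tested on 12433 probes that both array types share and that passed in both, from the log2 fold change of FaDu as labelled minus that of HN5. Of the 18 genes with such a probe, 3 differed at an adjusted p under 0.05, all above 0, beside 7.26% of probes above and 6.96% below 0. SFN had 0.5 in FaDu and -0.29 in HN5, a difference of 0.79 (95% interval 0.29 to 1.29, adjusted p = 0.0448). KRT14 had 0.68 in FaDu and -0.08 in HN5, a difference of 0.76 (0.29 to 1.22, adjusted p = 0.0462). KRT4 had 0.95 in FaDu and 0.06 in HN5, a difference of 0.89 (0.39 to 1.4, adjusted p = 0.0266). KRT4 entered this test only through the FaDu arrays labelled miR-7, where it was higher, and has no value when detection on every array is required. KRT13 had a difference of 0.84 that did not pass (adjusted p = 0.058), as did KRT5 with 0.56 (adjusted p = 0.132) and S100A2 with 0.74 (adjusted p = 0.167). S100A9 had 0.38 in FaDu and 0.39 in HN5, a difference of -0.02 with an interval from -0.69 to 0.66. The median difference of the 18 genes was 0.23, and of all shared probes -0.06. With the FaDu labels exchanged, an alternative chosen after the data were seen, 0 of the 18 genes passed, beside 0.0161% of probes above and 0.129% below 0. The difference was then -0.21 for SFN (95% interval -0.71 to 0.29) and -0.6 for KRT14 (-1.06 to -0.13). For KRT4 it was -1.01 (-1.52 to -0.5), with adjusted p of 0.151 to 0.72 for the 3 genes. The intervals of KRT15, KRT80, S100A2 and S100A9 lay below 0 as well, so 0 calls does not mean that the lines responded alike. All 3 calls were also lost with the replicate number as a block, with median scaling (adjusted p 0.0508 to 0.232) and on leaving out HN5 miR-NC replicate 1 (0.253 to 0.331) or miR-NC replicate 2 (0.195 to 0.286). KRT4 was also lost with no background correction (0.35, adjusted p = 0.179) and with the authors' log2 values (0.22, adjusted p = 0.263). SFN was lost without HN5 miR-7 replicate 1, FaDu miR-7 replicate 3 or FaDu miR-NC replicate 3 (adjusted p 0.0572 to 0.0813), and KRT14 without FaDu miR-NC replicate 2 (0.0543) or HN5 miR-7 replicate 2 (0.0581).

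**Figure D4:**
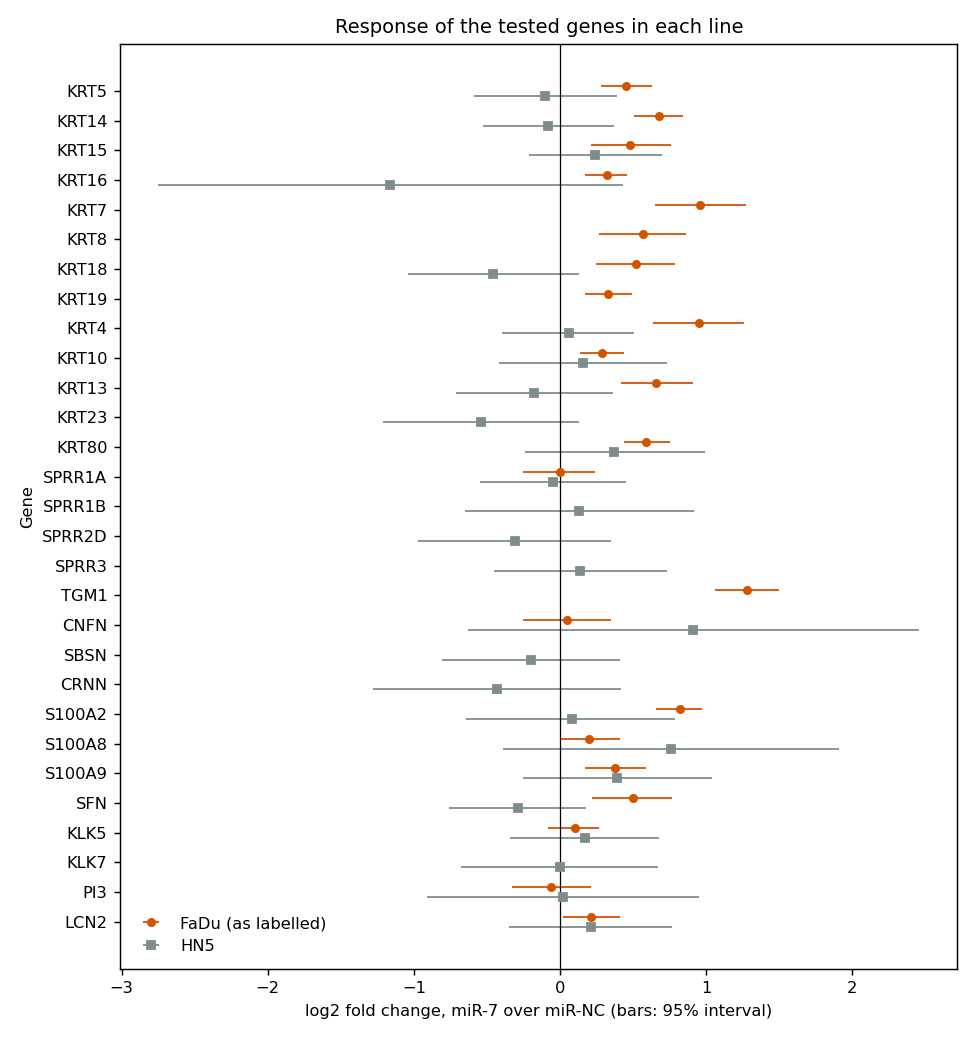
log2 fold change of miR-7 over miR-NC (horizontal, with 95% intervals) for each tested gene (vertical) in FaDu as labelled (orange circles, upper) and HN5 (grey squares, lower). All 12 FaDu keratins and TGM1 lie right of 0 with their intervals, and every HN5 interval includes 0.

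Genes that work with these in squamous epithelium were counted from fixed lists, and each FaDu count stands beside the 20.0% of all tested genes that were higher and the 21.8% that were lower. Of the desmosome genes, which anchor keratin filaments at cell junctions, 7 of 10 tested rose in FaDu and 0 fell, with PKP1 at 0.99 (adjusted p = 2.7e-05), PKP2 at 0.87, DSP at 0.46 and DSG2 at 0.28. In HN5, 0 of 11 passed the adjusted p. At the thresholds of the study 2 were lower and 0 higher, beside 4.41% and 6.01% of all HN5 genes. The 2 were PKP2 at -0.96 (adjusted p = 0.16) and PKP1 at -0.79 (adjusted p = 0.195). Of further envelope and epidermal differentiation complex genes, 5 of 11 tested rose in FaDu and 0 fell. Among them were the transglutaminase substrate CSTA (0.65), SERPINB13 (0.55), S100P (0.44) and S100A11 (0.34). CSTA averaged 5.68 in FaDu arrays labelled miR-7 and 5.03 in those labelled miR-NC. IVL, detected on no FaDu array, averaged 5.14 in those labelled miR-NC, so the CSTA change starts near background. In HN5 0 of 14 passed.

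Of the transcription factors and receptors of the squamous program, 5 of 22 tested rose in FaDu and 6 fell. The 4 with the smallest p were NOTCH2 (1.03), ELF3 (1.01), NOTCH3 (0.85) and CEBPA (-0.76). The NOTCH receptors did not move together, since NOTCH1 fell (-0.41, adjusted p = 0.00779). In HN5 0 of 21 passed the adjusted p. At the thresholds of the study 1 was higher and 2 lower, beside 6.01% and 4.41% of all genes. BNC1, a zinc-finger protein of basal keratinocytes, had -0.98 (adjusted p = 0.178), NOTCH3 -0.88 (adjusted p = 0.302) and NOTCH2 0.66 (adjusted p = 0.313). NOTCH2 was read by a different probe in each line. Of further kallikreins and defence genes, 4 of 9 rose in FaDu and 1 fell, with KLK11 at 0.63, KLK6 at 0.62, KLK10 at 0.62 and the antimicrobial RNASE7 at -1.03. In HN5 0 of 8 passed the adjusted p. At the thresholds of the study 2 were higher and 0 lower, beside the same 6.01% and 4.41% of all genes. The 2 were CST6 at 0.96 (adjusted p = 0.337) and RNASE7 at 0.84 (adjusted p = 0.186). Of further keratins, 0 of 1 passed in FaDu and 0 of 4 in HN5, where KRT6C, a near copy of KRT6A and KRT6B, had -0.41 (adjusted p = 0.444).

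Markers of other cells were counted in the same way. In FaDu, 0 of 8 fibroblast, 4 of 7 mesenchymal, 2 of 7 leukocyte, 2 of 5 endothelial and 0 of 5 glandular markers were tested, and in HN5 4, 4, 2, 1 and 0 of the same lists. The endothelial markers VWF (1.19, adjusted p = 4.93e-05) and CDH5 (0.49, adjusted p = 0.00332) were higher in FaDu arrays labelled miR-7. VWF averaged 5.98 in those arrays and 4.79 in those labelled miR-NC. SPRR2A, detected on no FaDu array, averaged 4.8 in those labelled miR-NC, so the VWF change starts near background. The leukocyte markers CD14 (-0.39, adjusted p = 0.00604) and CD68 (-0.3, adjusted p = 0.026) were lower in FaDu arrays labelled miR-7. In HN5, CD68, read by a different probe than in FaDu, had 0.69 (adjusted p = 0.214). VIM, the intermediate filament protein of mesenchymal cells, averaged 7.77 in FaDu arrays labelled miR-7 and 7.66 in those labelled miR-NC, and 14.1 in HN5 with miR-7 and 14.3 with miR-NC. The summed level of the mesenchymal list was 2580 to 2750 in FaDu arrays labelled miR-7 and 2370 to 2540 in those labelled miR-NC, and 37500 to 41400 in HN5 with miR-7 and 42600 to 50900 with miR-NC, on the linear scale. The summed level of the endothelial list was 247 to 253 in FaDu arrays labelled miR-7 and 188 to 211 in those labelled miR-NC, and that of the fibroblast list was 1600 to 2100 in HN5 with miR-7 and 1540 to 1750 with miR-NC, on the linear scale. The part of such cells in the keratin values was not tested.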

How the data were processed

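Groups, replicates and array columns were taken from the sample labels. The authors deposited scanner intensity values per probe, neither background-corrected nor normalized, with a detection p-value that the deposited columns hold as 1 minus p. They also deposited log2 values, made per the study's methods by variance stabilization (lumi, R 2.11.0) and quantile normalization. The cells of that table do not follow its probe identifiers (Spearman correlation with the array's intensity 0.0102 to 0.0195), and read in the probe order of the intensities they gave 0 rank differences. They served as an alternative only, and 4 values of HN5 miR-NC replicate 1 were not used.

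Of 47230 FaDu and 48802 HN5 probes, 30112 and 27577 had 1 gene in the array annotation. Probes with several genes (8 and 13) or none (17110 and 21212) were left out. Intensities were processed as in neqc of limma 3.58.1 (R 4.3.3) with an offset of 16, and quantile-normalized within each line. A probe was kept if all arrays of 1 group or more had a detection p under 0.01, the brightest per gene was used, and groups were compared with lmFit and eBayes, with Benjamini-Hochberg adjustment. The lines' responses were set against each other probe by probe, over 39424 identifiers on both arrays, using the log2 fold change and moderated SE of each line. Their number, 2 or 3 arrays per group, limits the precision. The fit was tested on simulated data. Other steps used Python 3.11.15, pandas 2.3.3 and Matplotlib 3.10.9.

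The genes and lists were chosen with earlier results of these data known. All 38 genes may be named, with array values for those that passed in either line and for the largest change of each group, and up to 4 genes per further list by smallest p. NOTCH1 was added beside NOTCH2 and NOTCH3. Alternatives were other background correction, offset, scaling, detection filter, probe choice, variance prior, the methods' t-test, the authors' log2 values, the replicate number as a block, leaving out each array and, for the lines, the FaDu labels exchanged.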

Additional observations from a re-analysis of the deposited data

Results flagged for a closer look

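With the FaDu arrays as labelled, the response to miR-7 differed between the lines for 3 genes at an adjusted p under 0.05. The test was of the difference itself (FaDu minus HN5, limma estimates, p adjusted over 12433 shared probes). The differences on the log2 scale were 0.76 for KRT14, 0.89 for KRT4 and 0.79 for SFN. For each gene all 3 FaDu arrays labelled miR-7 lay above all 3 labelled miR-NC, which held for 25.0% of all genes. In HN5 the SFN arrays with miR-7 lay below those with miR-NC, which held for 20.5% of all genes. The KRT14 arrays did so only by a margin lost in rounding, and the KRT4 arrays overlapped. With the FaDu labels exchanged, an alternative chosen after the data were seen, 0 genes differed, and the values were -0.6 for KRT14, -1.01 for KRT4 and -0.21 for SFN (adjusted p 0.151 to 0.72). The 3 calls were also lost with median scaling, with the replicate number as a block, and without HN5 miR-NC replicate 1 or replicate 2. KRT4 had 0.22 (adjusted p = 0.263) with the authors' log2 values and 0.35 (adjusted p = 0.179) with no background correction. KRT4 entered only through the FaDu arrays labelled miR-7, where it was higher, and has no value when detection on every array is required.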

How the results depend on the processing

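In FaDu, between 11 (the methods' t-test) and 18 genes were higher and 0 lower at the adjusted p under every alternative. The count at the thresholds of the study, 7, became 4 with no background correction and 2 with the authors' log2 values. Single calls lost were KRT10, KRT16 and S100A9 with median scaling, and KRT8, KRT15, KRT18, S100A9 and SFN with the methods' t-test. On leaving out 1 array, SPRR1A ranged from -0.06 to 0.09 and CNFN from -0.04 to 0.21.

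In HN5, leaving out 1 array gave 0 to 1 gene higher and 0 to 2 lower at the adjusted p, and 0 to 2 higher and 0 to 3 lower at the thresholds of the study. With no detection filter 1 was higher at those thresholds. Median scaling moved the median of all HN5 genes to -0.15, against 0.04, and that of the members to -0.14. Under it the values were KRT4 -0.14, SPRR1B -0.04, SPRR3 -0.09, S100A2 -0.04, KLK5 -0.02 and PI3 -0.17. KLK7 was 0.01 with no background correction and with the authors' values, and 0 with an offset of 50. On leaving out 1 array, values ranged from -0.24 to 0.03 for KRT5, from -0.38 to 0.03 for KRT13, from -0.17 to 0.08 for SPRR1A, from -0.42 to 0.01 for SBSN, from -0.34 to 0.34 for KLK7, from -0.02 to 0.14 for KRT4, from -0.06 to 0.37 for KRT10, from -0.31 to 0.56 for SPRR1B, from -0.1 to 0.39 for SPRR3, from -0.06 to 1.88 for CNFN, from -0.32 to 0.45 for S100A2, from -0.54 to 0.56 for PI3. None of these had passed with all arrays. Without HN5 miR-7 replicate 1, CNFN had 1.07, which rests on 1 miR-7 array.

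For the lines, 0 genes differed with median scaling, with the replicate number as a block, or with the FaDu labels exchanged, and 0 to 4 on leaving out 1 array. Exchanged labels, added after the data were seen, gave -0.6 for KRT14, -1.01 for KRT4 and -0.21 for SFN. The intervals of KRT14 and KRT4 then lay below 0. The replicate block gave 1 HN5 gene lower at the thresholds of the study and left the FaDu count at 16. Same-numbered FaDu arrays did not deviate together (correlations 0.06, -0.03 and 0.03). Such correlations cannot show how the transfections were run, so whether the numbers pair the arrays is not known. The cause of these changes was not tested, and probes near background limit what can be called.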
